A study of Mus musculus with 16 samples.

Results

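The genes that flank Slfn3 on chromosome 11 were compared between Slfn3KO and wild type (WT) mice by RNA sequencing of the ileum mucosa. A gene was taken when its smallest start coordinate in mm10 lay on chromosome 11 between 78191330 and 88215154, which is within 5 Mb of Slfn3 on either side. Symbols beginning with Slfn or Ccl were left out, and at least 10 counts were needed in at least 4 of the 16 libraries. Of the 46078 genes counted, 282 began in this window, of which 21 were Slfn or Ccl genes and 142 were under the count minimum. The remaining 119 genes are called the flanking genes here. They comprised 106 protein coding genes, 4 lincRNAs, 3 antisense transcripts, 2 processed transcripts, 2 sense intronic transcripts and 2 pseudogenes. With the same minimum, 14892 genes were kept in the whole table and 1113 on chromosome 11 outside the window.

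The 4 groups were female Slfn3KO, female WT, male Slfn3KO and male WT mice, each with 4 mice labelled C57Bl/6, and each mouse gave 1 library. The Slfn3KO mice carry a knockout of Slfn3, the methods describe Slfn3KO and WT mice as littermates, and the labels name no treatment. The labels give an age of 8 weeks, whereas the methods of the study give an older age. The strain of the embryonic stem cells in which Slfn3 was targeted is given in neither place.

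A gene disrupted by homologous recombination is passed on together with the DNA on both sides of it. When the stem cells and the strain used for breeding differ, flanking genes can keep the alleles of the stem cell strain, and such linked alleles are known as passenger genes. Crossing over separates distant genes from the target more often than near ones, and for this reason the flanking genes are ordered by their distance from Slfn3. Slfn3 is a member of the Schlafen family and is known in the rodent gut for its part in the differentiation of enterocytes.

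Each library held between 20823279 and 30813117 reads counted on genes. Levels are given in CPM, counts scaled to a common library total with TMM factors, in which 3 counts, the upper limit that a count of 0 allows, came to between 0.100 and 0.151 CPM. This limit covers counting error only.

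Transcripts of the sex chromosomes followed the sex label in 12 libraries and went against it in 4. In the libraries that followed it, Xist, the RNA that silences an X chromosome in females, lay between 312 and 629 CPM in females, and the Y-linked Ddx3y lay between 35.5 and 50.4 CPM in males. Female WT mice 3 and 4 had 0.124 and 0 CPM of Xist and 42.0 and 49.7 CPM of Ddx3y. Male WT mice 3 and 4 had 437 and 401 CPM of Xist and 0 and 0.0416 CPM of Ddx3y. The labels were kept, and results are therefore given with and without these 4 libraries.

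The same libraries stood apart in lymphoid content. Of 14 markers of B cell follicles, 14 had an unadjusted p under 0.05 and lower levels in Slfn3KO mice, with a median log2 fold change of -3.01. None of the 14 did without WT mice 3 and 4, and the median was 0.16. The markers summed to 43.4, 11.1, 76.8 and 16.3 CPM in the 4 female Slfn3KO mice and to 3.42, 8.29, 127 and 174 CPM in the 4 male Slfn3KO mice. They summed to 25.7, 182, 633 and 848 CPM in the female WT mice and to 8.54, 6.45, 1308 and 266 CPM in the male WT mice, in the order of the mouse numbers. The most abundant of them was Ighd, the heavy chain of immunoglobulin D, and each of the 14 was above 3 counts in at least 1 library. Fewer cells of a type and less RNA per cell cannot be told apart in these bulk samples.

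The remaining markers described the epithelial and stromal content. The 12 markers of enterocytes and ileum summed to between 30642 and 70795 CPM in Slfn3KO mice and to between 40312 and 82786 CPM in WT mice, with Anpep the most abundant, and 0 of 12 had an unadjusted p under 0.05. Their median log2 fold change was -0.25, and it was -0.32 in the set without WT mice 3 and 4, where 1 of 12 was lower at this level and 4 differed by over 1.5-fold. Of the T cell markers, 5 of 11 were lower in Slfn3KO mice at this level, with Cd8a the most abundant, as were 2 of 10 macrophage markers, with Lyz2 the most abundant. These were 0 of 11 and 0 of 10 without WT mice 3 and 4, where the median log2 fold change of the T cell markers went from -0.61 to -0.37 and that of the macrophage markers from -0.18 to 0.19. The T cell markers summed to 57.9 to 162 CPM in Slfn3KO mice and 63.5 to 260 CPM in WT mice, and the macrophage markers to 56.9 to 154 CPM and 68.7 to 301 CPM. None of the 8 smooth muscle markers passed it, with Acta2 the most abundant, and they summed to 5.42 to 83.1 CPM in Slfn3KO mice and 3.87 to 117 CPM in WT mice. Their median log2 fold change was 0.47 in all libraries and 1.53 in the set without WT mice 3 and 4, where 8 of 8 were over 1.5-fold higher and 1 had an unadjusted p under 0.05. No marker of any list was at 3 counts or under in every library.

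The targeted gene was close to the detection limit in all groups. Slfn3 (ENSMUSG00000018986, chromosome 11, 83191330 to 83215154, plus strand) had 0, 0, 0 and 2 counts in the female Slfn3KO mice and 1, 0, 0 and 0 counts in the male Slfn3KO mice. In WT mice it had 1, 4, 7 and 13 counts in females and 1, 2, 19 and 0 counts in males. The genotypes overlapped, the highest values were in WT mice 3 and 4 of the labelled females and WT mouse 3 of the labelled males, and too few counts were left for a test of the gene.

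Most flanking genes had nearly the same level in Slfn3KO and WT mice. Of the 119 genes, 118 passed the filter, and their median log2 fold change in Slfn3KO in comparison to WT mice was 0.002, while the median of all 14822 tested genes was -0.004. The median absolute log2 fold change was 0.122 for the flanking genes, 0.137 for the rest of chromosome 11 and 0.141 for all tested genes. No flanking gene passed an adjusted p of 0.05 with a change of at least 1.5-fold by the quasi-likelihood test of edgeR, adjusted by Benjamini-Hochberg, and neither did any other gene of the table (0 of 14822, 0%). At an unadjusted p under 0.05, 17 of 118 flanking genes were called against 11.9% of all tested genes. Of these, 12 were lower in Slfn3KO mice, a direction taken by 7.10% of all tested genes, and 5 were higher, a direction taken by 4.84%. The 12 include Evi2, Mmp28 and Tspoap1, which met the count minimum through WT mice. The 5 include Epx, which met it through Slfn3KO mice. These genes stay in the counts by distance, list and bin, but their calls are not taken as differences. DESeq2 called 2 flanking genes at the adjusted threshold, Mmp28 and Mir142hg, against 0.364% of all tested genes. No flanking gene had Slfn3KO and WT values without overlap, against 0.0270% of tested genes.

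The calls depended on the 4 WT libraries and on the follicle markers. An unadjusted p under 0.05 was found for 9 of 117 flanking genes without WT mice 3 and 4 of both labelled sexes, against 5.80% of tested genes, and 4 of the 9 were among the 17. The 9 include 1700020L24Rik, which met the count minimum through WT mice alone, and Mmp28. With the mean of the follicle markers as a covariate, 10 of 118 did, against 4.65% of tested genes, and 9 of the 10 were among the 17. The 10 include Tspoap1 and Mmp28. In this smaller set of libraries 1 flanking gene, Rab11fip4, had values without overlap, against 0.338% of tested genes. Rab11fip4, Mmp28, Ypel2 and Rnf43 had an unadjusted p under 0.05 in all 3 fits, which is 4 of 116 flanking genes (3.45%), 17 of 1104 genes on the rest of chromosome 11 (1.54%) and 257 of 14743 genes of the table (1.74%). Of the 4, Mmp28 met the count minimum through WT mice, and its call is not taken as a difference.

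The size of the differences did not fall steadily with the distance from Slfn3. Distance was taken from the start coordinate of a gene to the nearer end of Slfn3. On the side of lower coordinates, 7 genes within 1 Mb had a median absolute log2 fold change of 0.087, and 0 of them had an unadjusted p under 0.05. No flanking gene began between 1 and 2 Mb on this side. In the following bins the median was 0.045 over 9 genes at 2 to 3 Mb and 0.146 over 13 genes at 3 to 4 Mb. It was 0.116 over 21 genes at 4 to 5 Mb. These bins had 1, 2 and 3 genes at an unadjusted p under 0.05 (11.1%, 15.4% and 14.3%), against 11.9% of all tested genes. Without WT mice 3 and 4 they had 0, 1 and 1 (0%, 8.33% and 4.76%), against 5.80%, and medians of 0.088, 0.099 and 0.131. With the follicle covariate they had 0, 1 and 0 (0%, 7.69% and 0%), against 4.65%.

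In all libraries, the side of higher coordinates had its larger values in the nearest and the farthest bin. The median absolute log2 fold change was 0.285 over 18 tested genes within 1 Mb and 0.289 over 18 genes at 4 to 5 Mb. Between them it was 0.079 over 10 genes at 1 to 2 Mb, 0.075 over 7 genes at 2 to 3 Mb and 0.113 over 15 genes at 3 to 4 Mb. The genes at an unadjusted p under 0.05 numbered 4, 1, 0, 1 and 5 from the nearest to the farthest bin, which is 22.2% in the nearest and 27.8% in the farthest bin against 11.9% of all tested genes. All of these bins held at most 21 genes. The calls of Mmp28 in the nearest bin and of Tspoap1 and Epx in the farthest are not taken as differences. In the set without WT mice 3 and 4, the medians were 0.176, 0.212, 0.077, 0.164 and 0.437 in the same order. The nearest bin had 3 such genes of 19 there (15.8%) and the farthest 1 of 17 (5.88%), against 5.80% of all tested genes. The 3 include Mmp28 and 1700020L24Rik, which met the count minimum through WT mice and are not taken as differences. With the follicle covariate the nearest bin had 3 of 18 (16.7%) and the farthest 4 of 18 (22.2%), against 4.65%. These again include Mmp28 and Tspoap1.

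Across the 118 genes, Spearman's rho between the absolute distance and the absolute log2 fold change was -0.004. It was 0.043 over 117 genes without WT mice 3 and 4 and -0.036 over 118 genes with the follicle covariate. Neighbouring genes share the libraries and the tissue and are not independent replicates. The plot of fold change against distance shows the fold changes of both sets of libraries side by side.

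**Figure D1:**
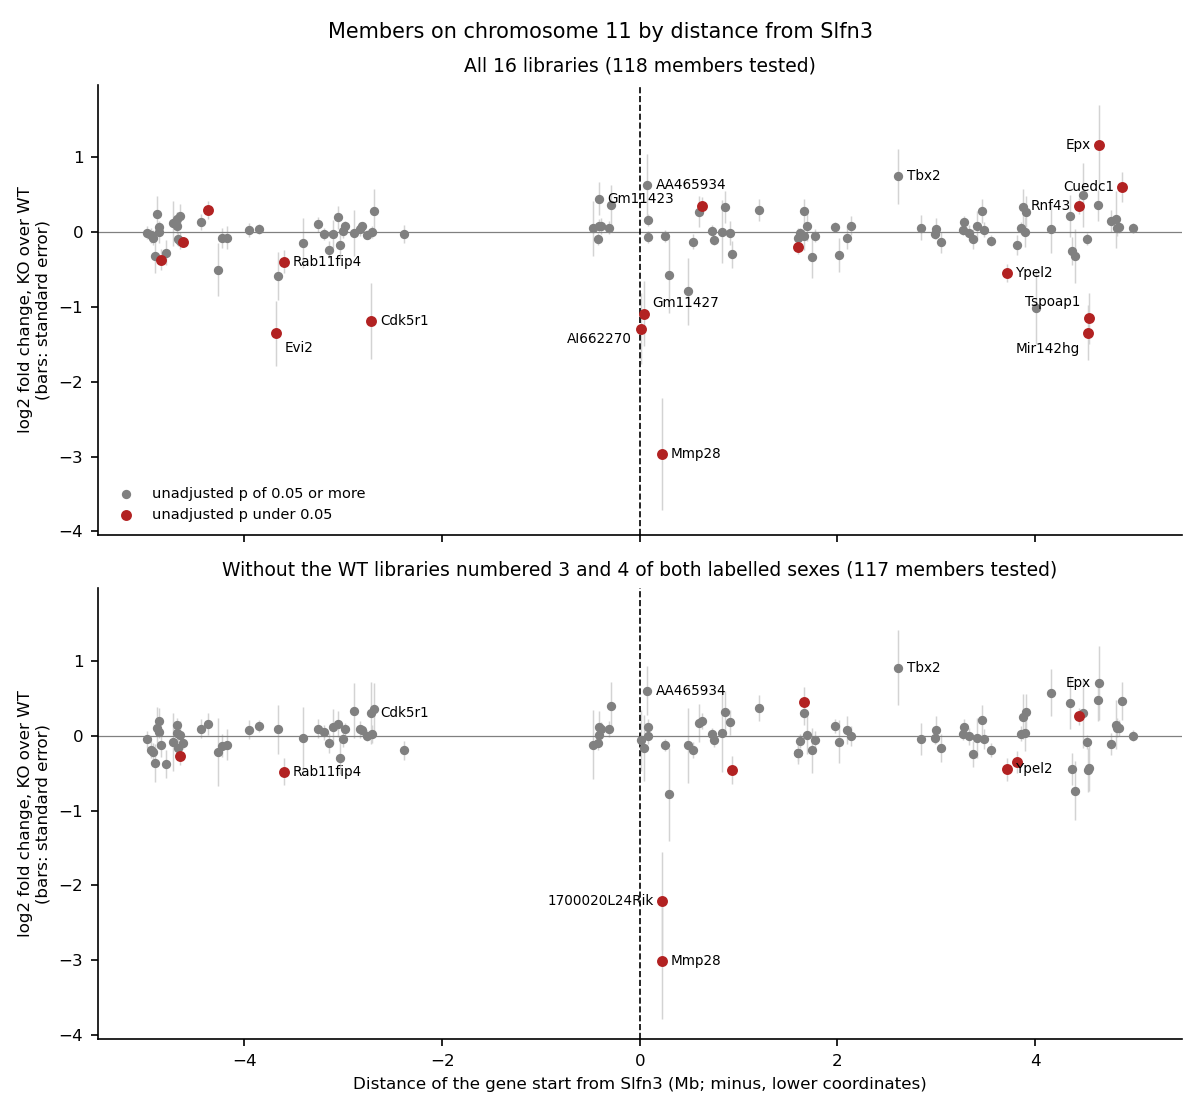
The log2 fold change of each tested flanking gene in Slfn3KO in comparison to WT mice (y axis, bars are standard errors) against its distance from Slfn3 in Mb (x axis), in all 16 libraries (top) and without WT mice 3 and 4 (bottom). Genes at an unadjusted p under 0.05 are red, and Mmp28 lies at -2.97 in the upper and -3.01 in the lower panel.

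The single genes at the window's borders had small differences, apart from 1 gene just outside, although the bin at the higher border had the largest median of all bins. Supt6, which begins at -4.98 Mb from Slfn3 (minus for lower coordinates), and Mrps23, which begins at 4.99 Mb, were the outermost flanking genes, with log2 fold changes of -0.01 and 0.06. Rab34 began just outside the lower border and had a log2 fold change of 0.55, and Msi2 at 5.12 Mb had 0.05. At the count minimum, 9130204K15Rik, 1700020L24Rik and Ppm1e had 10 counts in exactly 4 libraries, and no gene of the window had them in exactly 3.

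The nearest flanking genes on the lower side, with the closer Slfn genes left out by the rule, had unadjusted p over 0.05 in all 3 pooled fits. Of the Slfn genes left out there, Slfn2 and Slfn8 had lower levels in Slfn3KO mice at an unadjusted p under 0.05 in all 3 fits. Slfn8 had 5, 7, 8, 2, 13, 1, 8 and 2 counts in the Slfn3KO mice, females first, and 6 to 96 counts in WT mice. It reached the count minimum through WT mice, and its call is therefore not taken as a difference. Nle1, a factor in the assembly of the large ribosomal subunit, begins at -0.291 Mb from Slfn3 and had a log2 fold change of 0.36 with a standard error of 0.275. Rffl, a RING finger ubiquitin ligase, had 0.08, and Lig3, a DNA ligase of base excision repair, had 0.09. The antisense transcript Gm11423 begins at -0.412 Mb and had 0.45 with a standard error of 0.217, which was 0.12 without WT mice 3 and 4.

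On the higher side, 2 noncoding genes next to Slfn3 had lower levels in Slfn3KO mice. AI662270, a noncoding RNA that begins 8.42 kb from Slfn3, lay between 0.757 and 5.56 CPM with a median of 3.02 in Slfn3KO mice. In WT mice it was at 4.77, 3.72, 11.4 and 17.9 CPM in females and 2.10, 3.26, 17 and 5.44 CPM in males. The groups overlapped, and the 3 values above 6 CPM were all in WT mice 3 and 4. Its log2 fold change was -1.29 in all libraries, -0.06 without WT mice 3 and 4 and -0.39 with the follicle covariate. The pseudogene Gm11427, 39.0 kb from Slfn3, had values of -1.09, -0.17 and -0.42 in the same fits.

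Other genes followed within 0.1 Mb on that side. AA465934, a noncoding RNA, had a log2 fold change of 0.62 with a standard error of 0.418. Ap2b1, a subunit of the clathrin adaptor AP-2, had -0.06 at a level of 144 to 212 CPM over all mice. Neither had an unadjusted p under 0.05 in any of the 3 pooled fits.

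Mmp28 had the lowest fold change of all flanking genes. Mmp28 (ENSMUSG00000020682, chromosome 11, 83440768 to 83463071, minus strand) encodes epilysin, a secreted matrix metalloproteinase, and begins 0.226 Mb from Slfn3. The female Slfn3KO mice had 0.430, 0.572, 0.155 and 0.201 CPM and the male Slfn3KO mice 0.757, 0.0793, 0.177 and 0.0950 CPM. The female WT mice had 6.13, 1.06, 0.249 and 5.21 CPM and the male WT mice 0.100, 3.33, 0.646 and 3.57 CPM. Of the 8 WT mice, 5 were above the highest Slfn3KO mouse, and the other 3 lay within the Slfn3KO range. The Slfn3KO mice had 10, 14, 4, 5, 21, 2, 5 and 2 counts, females first. The WT mice had 122, 25, 6, 119, 3, 95, 19 and 86 counts in the same order. Mmp28 met the count minimum through WT mice, and its call is therefore not taken as a difference.

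The mean Mmp28 level was 0.340 ± 0.196 CPM (SD, n = 4) in female Slfn3KO, 3.16 ± 2.94 CPM in female WT, 0.277 ± 0.323 CPM in male Slfn3KO and 1.91 ± 1.79 CPM in male WT mice. The log2 fold change was -2.97 with a standard error of 0.748 in all libraries. It was -3.01 without WT mice 3 and 4 and -3.37 with the follicle covariate. The adjusted p was 0.327 by the quasi-likelihood test of edgeR, adjusted by Benjamini-Hochberg and 0.0117 by DESeq2, and over all alternatives it lay between 0.0117 and 0.845.

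The counts of a short gene on the other strand of the same locus are given as a description only. 1700020L24Rik (chromosome 11, 83437677 to 83441233, plus strand) overlaps the end of Mmp28, was chosen after its values were seen, and is the flanking gene that did not pass the filter in all libraries. It had 2, 2, 0, 1, 4, 0, 2 and 1 counts in the Slfn3KO mice and 10, 3, 0, 11, 4, 12, 0 and 10 counts in the WT mice, females first. The 4 WT mice with 10 or more counts were the 4 with the highest Mmp28 levels. It passed the filter without WT mice 3 and 4, where it is 1 of the 9 genes at an unadjusted p under 0.05 and is drawn in the plot by distance. The gene met the count minimum through WT mice alone, and this call is therefore not taken as a difference. Reads were counted by strand, and the part of read assignment between the 2 genes was not tested.

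Rab11fip4, Mmp28 and Ypel2 were lower in all 3 pooled fits, and no promoter entry was found for Rab11fip4. The promoters of Mmp28 and Ypel2, which have an entry in RefSeq (GRCm38.p6), are therefore shown. Capitals mark GC boxes (GGGCGG, searched on both strands), of which each of these promoters holds 3. The 2 promoters of Rnf43, which was higher in all 3 fits, hold 0. These genes are too few to relate GC boxes to the direction of a difference. Mmp28 lies at chr11:83462991-83463290 and Ypel2 at chr11:86993713-86994012, both on the minus strand and written 5′ to 3′.
Mmp28: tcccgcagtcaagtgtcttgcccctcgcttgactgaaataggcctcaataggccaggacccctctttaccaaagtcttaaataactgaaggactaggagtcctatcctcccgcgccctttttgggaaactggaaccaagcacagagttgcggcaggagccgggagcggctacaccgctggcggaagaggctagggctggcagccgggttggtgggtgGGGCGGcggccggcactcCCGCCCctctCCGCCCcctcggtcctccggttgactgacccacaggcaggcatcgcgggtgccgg
Ypel2: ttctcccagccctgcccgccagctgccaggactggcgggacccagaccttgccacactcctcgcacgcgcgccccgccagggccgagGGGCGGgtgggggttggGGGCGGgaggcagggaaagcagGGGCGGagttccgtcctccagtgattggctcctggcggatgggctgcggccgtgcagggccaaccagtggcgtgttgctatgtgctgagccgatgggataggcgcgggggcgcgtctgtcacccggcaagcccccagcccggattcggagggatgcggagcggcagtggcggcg

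A promoter was found for 91 of the 119 flanking genes, with 103 promoters in all. The GC box occurred in 63 of these 103 (61.2%) and in 11714 of all 32851 promoters (35.7%). A TATA box (TATAAA) occurred in 7.77% and 13.6%, and an ETS core (GGAAGT) in 31.1% and 23.8%. The flanking genes were chosen to be expressed here, whereas the set of all promoters was not.

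**Figure D2:**
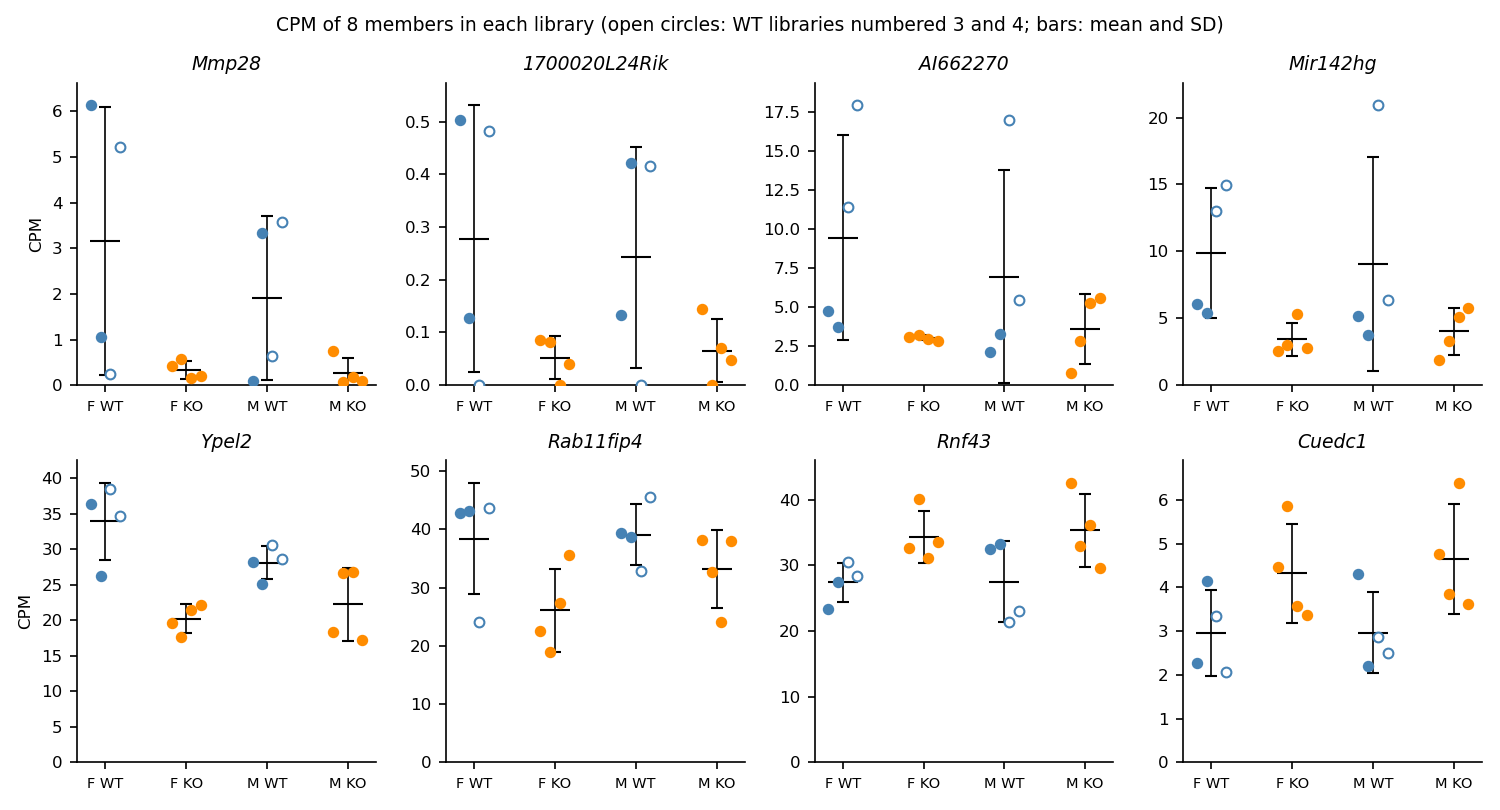
CPM (y axis) of 8 flanking genes in each library by labelled sex and genotype (x axis), with WT mice 3 and 4 as open circles and the mean with SD as bars. Of the 8 WT mice, 5 lie above every Slfn3KO mouse in Mmp28, whereas the high WT values of AI662270 and Mir142hg are mostly open circles.

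Several lower genes, put together after their values were seen, had smaller differences without WT mice 3 and 4 or did not pass the filter there. Mir142hg, the host gene of the hematopoietic microRNA miR-142, begins 4.54 Mb from Slfn3 and lay between 1.91 and 5.80 CPM with a median of 3.16 in Slfn3KO mice. In WT mice it was at 6.08, 5.42, 13 and 15 CPM in females and 5.14, 3.72, 20.9 and 6.40 CPM in males. The highest 4 values were in WT mice 3 and 4 of both labelled sexes, which also had the highest sums of follicle markers. Its log2 fold change was -1.35 with a standard error of 0.369 in all libraries, -0.45 without WT mice 3 and 4 and -0.66 with the follicle covariate. DESeq2 gave it an adjusted p of 0.0475, and over all alternatives its adjusted p lay between 0.0475 and 0.845.

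The mature microRNAs of this locus in RefSeq (GRCm38.p6) are shown because Mir142hg, on the plus strand, is the host of 2 of them, with the seed, bases 2 to 8, in capitals. Mature microRNAs were not measured in these libraries. The 5p form lies at chr11:87756867-87756887 and the 3p form at chr11:87756903-87756925, both on the plus strand, and miR-142b lies at chr11:87756906-87756925 on the minus strand, opposite to Mir142hg. The 3 seeds differ from each other.
mmu-miR-142a-5p: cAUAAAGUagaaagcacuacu
mmu-miR-142a-3p: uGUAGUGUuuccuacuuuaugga
mmu-miR-142b: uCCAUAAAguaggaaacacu

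Tspoap1, the neighbour of Mir142hg, encodes a protein that binds the peripheral benzodiazepine receptor. It lay between 0.216 and 0.713 CPM in Slfn3KO mice and between 0.339 and 1.58 CPM in WT mice, with log2 fold changes of -1.15, -0.44 and -0.78 in the 3 fits. Tspoap1 had 6 to 9 counts in the Slfn3KO mice, apart from 15 counts in male mouse 4. It met the count minimum through WT mice, and its call is therefore not taken as a difference. Evi2, a common site of retroviral integration, had -1.35 in all libraries and -0.46 with the covariate, and did not pass the filter without WT mice 3 and 4. Among Slfn3KO mice only male mouse 3 reached 10 counts of Evi2. Evi2 met the count minimum through WT mice, and its call is therefore not taken as a difference. Evi2 overlaps Evi2a and Evi2b on its own strand, and reads in shared exons were not counted. Cdk5r1, the p35 activator of the kinase Cdk5, had -1.19 in all libraries, 0.30 without WT mice 3 and 4 and -0.14 with the covariate. In WT mice Cdk5r1 was at 2.78, 3.24, 4.32 and 1.21 CPM in the 4 libraries that went against their sex label and at 0.467 to 0.736 CPM in the other 4. With the covariate, Mir142hg and Tspoap1 kept an unadjusted p under 0.05, while Evi2 and Cdk5r1 did not. The part of follicle content in these genes was otherwise not tested.

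Ypel2 had the smallest unadjusted p of all flanking genes, 0.000358 in the edgeR fit of all libraries. Ypel2 (ENSMUSG00000018427, chromosome 11, 86936425 to 86993707, minus strand), a member of the Yippee-like family of small zinc-binding proteins, begins 3.72 Mb from Slfn3. It lay between 17.2 and 26.8 CPM with a median of 20.5 in Slfn3KO mice and between 25.1 and 38.5 CPM with a median of 29.6 in WT mice. Of the 8 Slfn3KO mice, 6 were below the lowest WT mouse. In the pooled fit it had a log2 fold change of -0.54 with a standard error of 0.120, and it was -0.45 without WT mice 3 and 4 and -0.49 with the follicle covariate. Its adjusted p was 0.327 by the quasi-likelihood test of edgeR, adjusted by Benjamini-Hochberg and 0.0197 by DESeq2, where its change was under 1.5-fold, and over all alternatives it lay between 0.0197 and 0.845.

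Rab11fip4, an effector of the recycling endosome GTPase Rab11, begins at -3.60 Mb from Slfn3. It lay between 19 and 38.2 CPM with a median of 30.0 in Slfn3KO mice and between 24.0 and 45.6 CPM with a median of 41.1 in WT mice. The lowest WT value was in female WT mouse 3, and without WT mice 3 and 4 the WT values of 38.6 to 43.2 CPM were all above the Slfn3KO values. Its log2 fold change was -0.39 with a standard error of 0.156, -0.48 without WT mice 3 and 4 and -0.44 with the covariate.

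Among the higher genes, Rnf43 kept an unadjusted p under 0.05 in all 3 fits. Rnf43, a ubiquitin ligase that removes Frizzled receptors and restrains Wnt signalling in intestinal stem cells, begins 4.45 Mb from Slfn3. It lay between 29.6 and 42.6 CPM with a median of 33.3 in Slfn3KO mice and between 21.4 and 33.3 CPM with a median of 28.0 in WT mice, with some overlap. In the pooled fit it had a log2 fold change of 0.34 with a standard error of 0.107, 0.26 without WT mice 3 and 4 and 0.24 with the covariate.

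Cuedc1, a protein with a ubiquitin-binding CUE domain, begins 4.88 Mb from Slfn3 and had 0.60, 0.47 and 0.57 in these fits. Epx, the peroxidase of eosinophil granules, had 1.16, 0.70 and 0.78 at levels of 0.215 to 0.762 CPM in Slfn3KO mice and 0 to 0.534 CPM in WT mice, which are near the detection limit. The Slfn3KO mice had 5, 18, 11, 19, 19, 8, 10 and 7 counts of Epx and the WT mice 5, 7, 10, 0, 16, 2, 2 and 1. Epx met the count minimum through Slfn3KO mice, and its call is therefore not taken as a difference.

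Other genes at an unadjusted p under 0.05 had smaller differences. They include Unc119 with a log2 fold change of -0.37, Nlk with -0.14, Lyrm9 with 0.29 and Mrm1 with -0.21, and they were chosen after their values were seen. These values were -0.13, -0.10, 0.16 and -0.23 without WT mice 3 and 4.

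**Figure D3:**
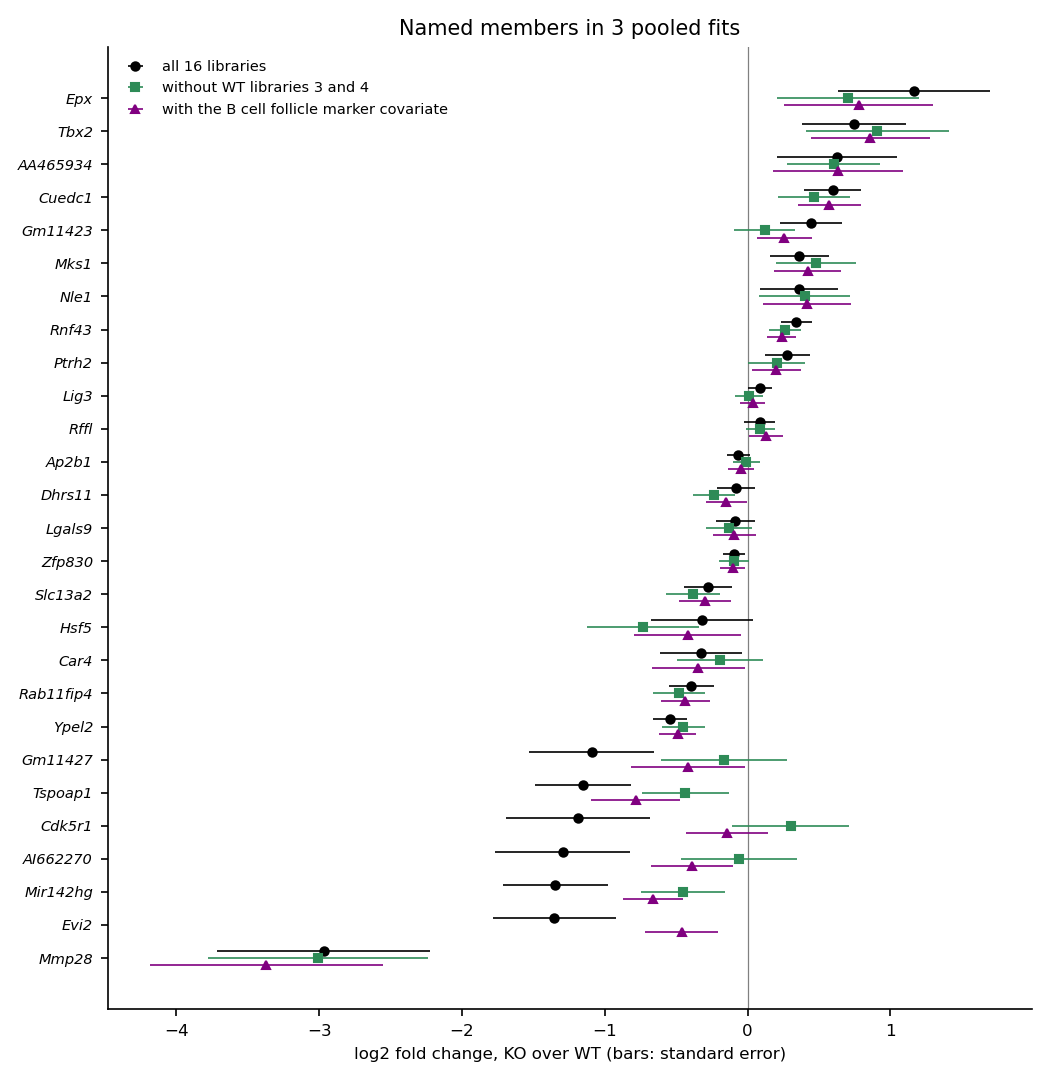
The log2 fold change in Slfn3KO in comparison to WT mice (x axis, bars are standard errors) of the 27 named flanking genes (y axis) in all libraries, without WT mice 3 and 4 and with the follicle covariate. Mmp28 has -2.97, -3.01 and -3.37 in the 3 fits, whereas AI662270 moves from -1.29 to -0.06 and -0.39.

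The genes of the window were also grouped by what they are known to do, and the median log2 fold change of all tested genes was -0.004, with 7.10% of them lower and 4.84% higher at an unadjusted p under 0.05. Of 21 innate immune and leukocyte genes listed, 13 were flanking genes, and 2 were lower and 1 higher at an unadjusted p under 0.05, with a median of -0.23 and of -0.13 without WT mice 3 and 4. They ran from Mmp28 at -2.97 to Epx at 1.16. Mmp28 met the count minimum through WT mice and Epx through Slfn3KO mice, and their calls are not taken as differences. Without WT mice 3 and 4, 1 of the 13 had an unadjusted p under 0.05 (7.69%), against 5.80% of all tested genes. With the covariate 1 of the 13 did (7.69%), against 4.65%. In both fits this gene was Mmp28. Of 17 genes in the list named for DNA repair and replication, 16 were flanking genes and none was called, with a median of 0.06, from -0.10 in the zinc finger gene Zfp830 to 0.36 in Nle1 and in Mks1, a protein of the ciliary transition zone. Of 21 chromatin and transcription genes, 16 were flanking genes with 1 lower and 1 higher and a median of 0.01. They ran from Hsf5 at -0.32 to the T-box repressor Tbx2 at 0.74, which lay between 0.201 and 2.26 CPM. Of these 16, 0 were called without WT mice 3 and 4 and 1 with the covariate (6.25%).

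Of 19 genes of metabolism and transport, 12 were flanking genes with 1 lower and none higher and a median of -0.01. Car4, a membrane-bound carbonic anhydrase of the brush border, had the smallest value of -0.33 and the mitochondrial hydrolase gene Ptrh2 the largest of 0.28. Of the 12, 2 were called without WT mice 3 and 4 (16.7%), against 5.80% of all tested genes. With the covariate 1 was (8.33%), against 4.65%. Of 27 genes of trafficking, cytoskeleton and signalling, 21 were flanking genes with 3 lower and 1 higher and a median of 0.00, and they ran from Cdk5r1 at -1.19 to Rnf43 at 0.34. In each of the other fits 3 of the 21 were called (14.3%). The 40 tested flanking genes in no list had 5 lower and 2 higher genes and a median of 0.04. Without WT mice 3 and 4, 3 of 39 were called (7.69%), among them 1700020L24Rik. With the covariate 4 of 40 were (10%), among them Tspoap1. Neither gene is taken as a difference.

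Per kb of exon, Lgals9, Dhrs11 and Slc13a2 were the most abundant flanking genes. Lgals9, the lectin galectin-9, had 266 CPM per kb, Dhrs11, a short-chain dehydrogenase, had 235, and Slc13a2, the sodium-coupled citrate and succinate transporter, had 223. The median of the flanking genes was 4.59 and the lowest, Ppm1e, had 0.0622. In Slfn3KO mice the log2 fold changes of the 3 most abundant genes were -0.08, -0.08 and -0.28, each with an unadjusted p over 0.05. Slc13a2 lay between 274 and 751 CPM in Slfn3KO mice and between 358 and 666 CPM in WT mice.

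Each labelled sex was also compared alone. In males, 3 of 112 flanking genes had an unadjusted p under 0.05, against 3.84% of tested genes, among them Mmp28 at -2.71 and Cuedc1 at 0.65. Residuals of male mice of the same number correlated at 0.138 to 0.518. Only male Slfn3KO mice 2 and 3 correlated best with the WT mouse of their own number. With the number as a block, 8 of 112 flanking genes were called, against 6.63% of tested genes. With the block Cuedc1 kept an unadjusted p under 0.05, while Mmp28 had a log2 fold change of -2.41 and an unadjusted p over 0.05. Without WT mice 3 and 4, which leaves 2 male WT mice, 9 of 115 were called, against 7.14%, and 1 of the 9 was among the 3. In females, 18 of 113 had an unadjusted p under 0.05, against 17.1% of tested genes, of which 8 were lower and 10 higher. These numbers were 29 of 113 and 24.0% without WT mice 3 and 4.

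At the adjusted threshold edgeR called no flanking gene in males (0% of tested genes) or in females (0%), where DESeq2 called 0 in males (0.0991%) and 5 in females (3.60%). The 5 were Ypel2, Mir142hg, Mmp28, AI662270 and Unc119, the last chosen after its values were seen. The call of Mmp28 is not taken as a difference in either sex. Ypel2 had a log2 fold change of -0.75 in females and -0.33 in males, and its difference between the sexes of -0.41 had an unadjusted p over 0.05.

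The difference between the sexes, taken as the female minus the male log2 fold change, had an unadjusted p under 0.05 in 12 of 118 flanking genes, against 11.1% of tested genes. None passed the adjusted threshold by edgeR (0% of tested genes) or DESeq2 (0.128%). Without WT mice 3 and 4, 31 of 117 had an unadjusted p under 0.05, against 26.9%, and 4 passed the adjusted threshold, against 2.38% of tested genes. The 4 were Car4, Brip1, Ints2 and Rps6kb1, of which the last 3 were chosen after their values were seen. Each share was near that of all tested genes.

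Car4 had the largest difference of these 4 genes. It was at 213, 159, 160 and 214 CPM in female Slfn3KO mice and at 108, 99.9, 228 and 245 CPM in female WT mice. It was at 113, 132, 113 and 104 CPM in male Slfn3KO mice and at 263, 206, 268 and 60.3 CPM in male WT mice. Among WT mice 1 and 2, the females were below and the males above all Slfn3KO mice of their sex, and WT mouse 4 of the labelled males was the lowest of all. The difference between the sexes was 0.92 in all libraries and 1.86 without WT mice 3 and 4. The adjusted p in the latter was 0.0216 by the quasi-likelihood test of edgeR, adjusted by Benjamini-Hochberg, and over all alternatives it lay between 0.0216 and 0.734.

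The list named for DNA repair and replication had opposite signs in the labelled sexes. It is a mixed list, in which Nle1, Mks1, Tefm, Tubd1, Ints2, Prr11, Ska2, Spag5 and Trim37 are not genes of repair or replication. This split of the list by sex was chosen after its values were seen. In females, 15 of 16 had a log2 fold change above 0, with a median of 0.34, and in males 14 of 16 were below 0, with a median of -0.14. The medians of all tested genes were -0.01 in females and 0.00 in males. The medians of the list without WT mice 3 and 4 were 0.63 and -0.22, again with 15 of 16 above 0 in females and 14 of 16 below 0 in males. The difference between the sexes had an unadjusted p under 0.05 in 4 of the 16 genes in all libraries, against 11.1% of tested genes, and in 11 of 16 without WT mice 3 and 4, against 26.9%, each higher in females. Its median over the list was 0.57 and 1.01, where all tested genes had 0.01 and -0.03. Enterocyte and ileum markers summed to 33499, 30642, 50407 and 49749 CPM in female Slfn3KO mice. In female WT mice they summed to 82786, 67975, 40312 and 56957 CPM. The male sums lay between 48463 and 70795 CPM in Slfn3KO and between 45589 and 76730 CPM in WT mice. Smooth muscle markers summed to 37.6, 83.1, 9.17 and 5.42 CPM in female Slfn3KO and 3.87 to 14.6 CPM in female WT mice. The part of sample content in this split was not tested.

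Brip1, a helicase that acts with BRCA1, was 1 of them. Female Slfn3KO mice had 10.2, 9.49, 8.63 and 8.99 CPM and female WT mice 6.53, 5.25, 8.00 and 7.36 CPM. Male Slfn3KO mice had 5.73, 6.43, 7.84 and 6.37 CPM and male WT mice 10.3, 10.2, 7.62 and 5.11 CPM. All female Slfn3KO mice were above all female WT mice, while in males WT mice 1 and 2 were above and WT mouse 4 below all Slfn3KO mice. The difference between the sexes was 0.79 in all libraries and 1.30 without WT mice 3 and 4. The adjusted p in the latter was 0.0418 by the quasi-likelihood test of edgeR, adjusted by Benjamini-Hochberg, and over all alternatives it lay between 0.0418 and 0.705.

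Lig3 had 36.7, 33.7, 32.5 and 29.9 CPM in female Slfn3KO mice and 27.3, 27.5, 29.8 and 23.5 CPM in female WT mice, and 25.7, 25.5, 25.9 and 26.7 CPM in male Slfn3KO mice against 29.4, 31.5, 25.0 and 27.3 CPM in male WT mice. Its difference between the sexes was 0.42, and 0.51 without WT mice 3 and 4. Spag5 and Ska2 of this list belong to the mitotic spindle, and the share of dividing cells was not measured. The plot of this list by sex shows the values with and without the 4 libraries.

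**Figure D4:**
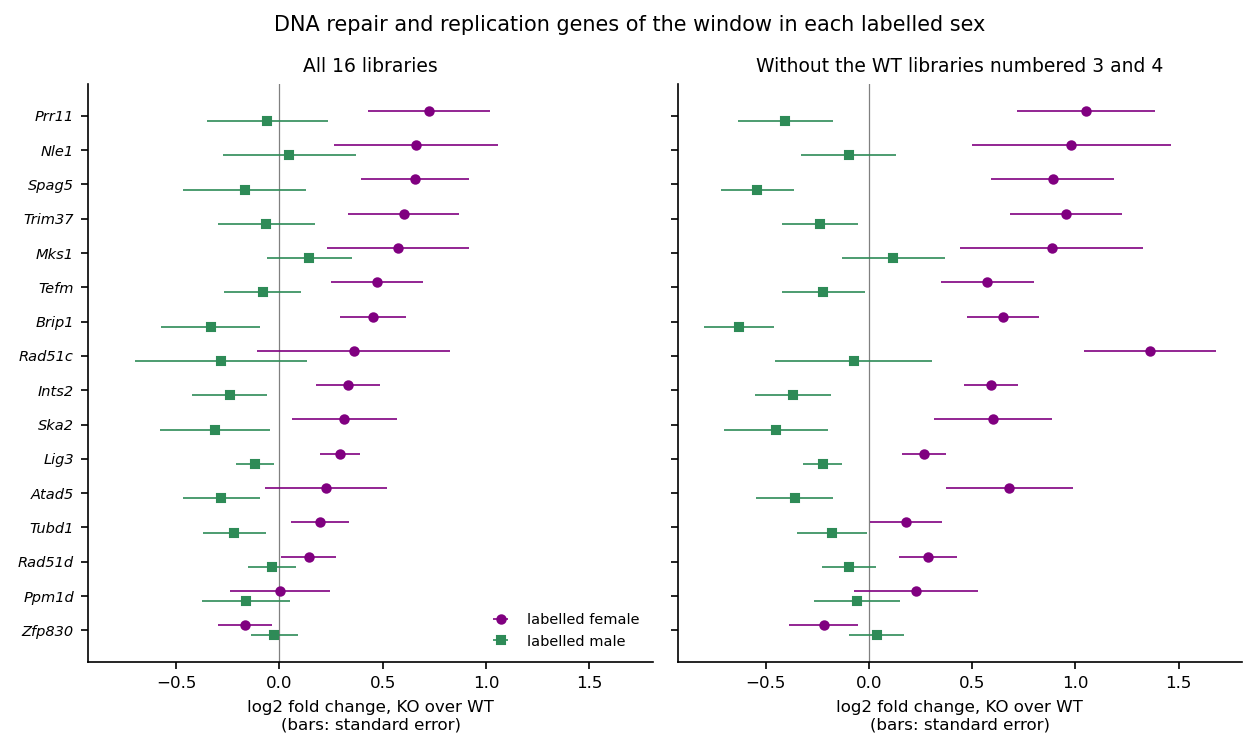
The log2 fold change in Slfn3KO in comparison to WT mice (x axis, bars are standard errors) of the 16 genes of the list named for DNA repair and replication (y axis) in labelled females and males, in all libraries (left) and without WT mice 3 and 4 (right). In females 15 of 16 lie above 0 and in males 14 of 16 below 0 in both panels.

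The window was compared with the rest of chromosome 11 in bins of 5 Mb. The window had an unadjusted p under 0.05 in 6 of 50 tested genes on the lower side (12%) and in 11 of 68 on the higher side (16.2%), and the rest of the chromosome in 124 of 1109 (11.2%). Without WT mice 3 and 4 these were 2 of 49 (4.08%), 7 of 68 (10.3%) and 72 of 1107 (6.5%). The 7 include Mmp28 and 1700020L24Rik, which met the count minimum through WT mice and are not taken as differences. The bin from 20 to 25 Mb on the higher side had 11 of 56 (19.6%) in all libraries and 4 of 56 (7.14%) without WT mice 3 and 4. With the follicle covariate this bin had 7 of 56 (12.5%). In that fit the lower side of the window had 1 of 50 (2%), the higher side 9 of 68 (13.2%) and the rest 66 of 1109 (5.95%). Bins with larger shares than either side of the window were found elsewhere in the first 2 fits, whereas with the covariate only a bin of 6 genes had a larger share. The difference between window and chromosome was not tested.

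**Figure D5:**
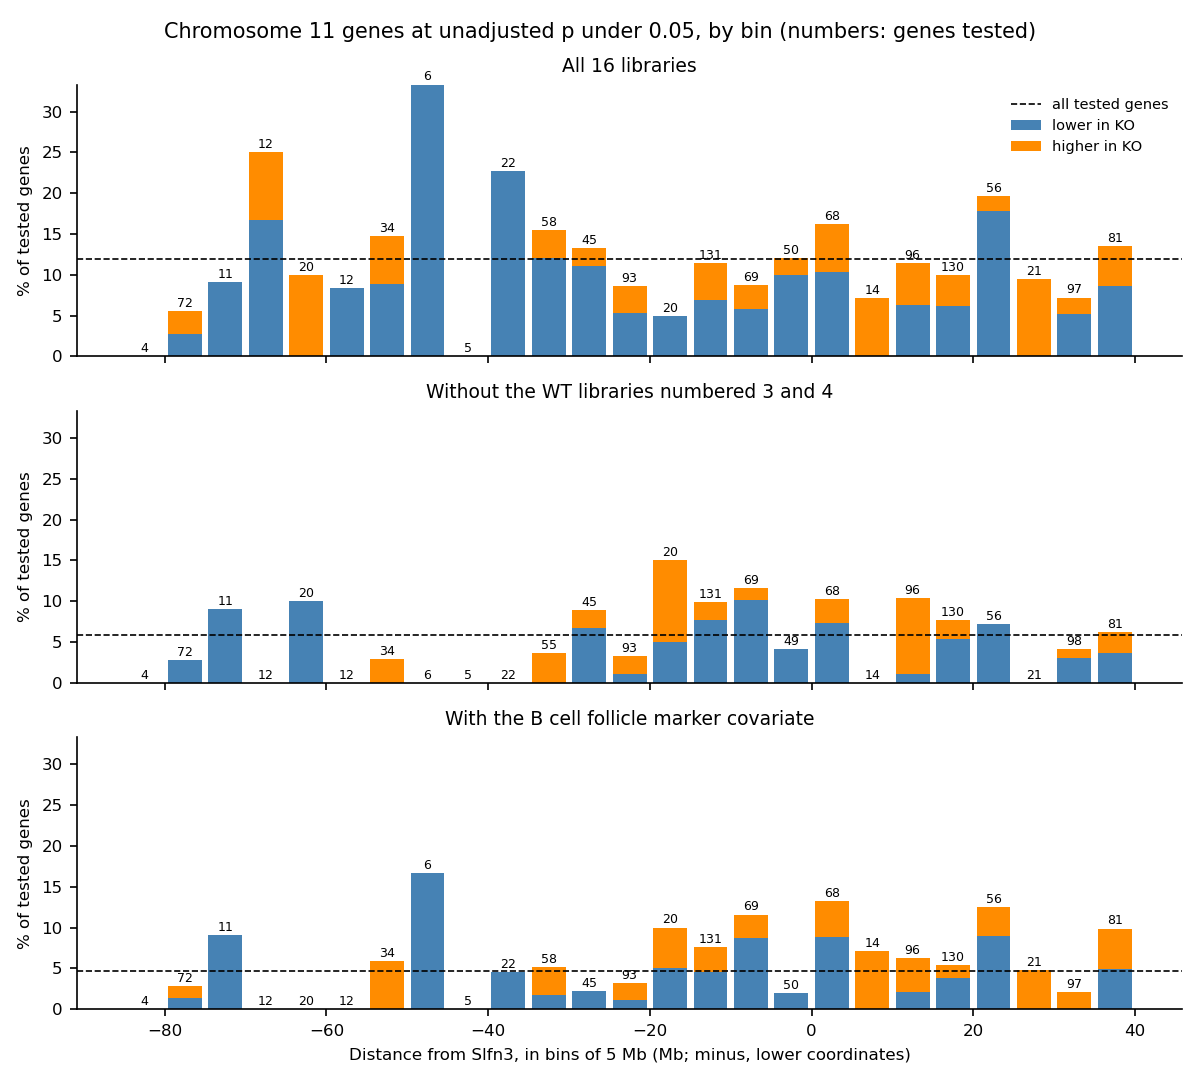
The percentage of tested genes at an unadjusted p under 0.05 (y axis, lower in Slfn3KO in blue, higher in orange) in bins of 5 Mb along chromosome 11 by distance from Slfn3 (x axis) in the 3 pooled fits, with the number of tested genes above each bar and the share of all tested genes as a dashed line. The bins next to Slfn3 reach 12% and 16.2% in all libraries, where the dashed line lies at 11.9%.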

How the data were processed

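The authors aligned single reads to mm10 with STAR and deposited raw counts per gene. The header of the table names featureCounts with reverse-stranded counting and the paper names HTSeq. Reads that overlap several genes on the same strand were not counted, which lowers genes such as Evi2. Symbols were matched for 45143 of 46078 identifiers.

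R 4.3.3 was used. The whole table was fitted with edgeR 4.0.16 (TMM normalization, genes kept by filterByExpr, quasi-likelihood test with robust dispersions). The pooled fit had labelled sex as a covariate, and p-values were adjusted over all tested genes by the Benjamini-Hochberg method. DESeq2 1.42.0 with its Wald test was the other tool. Standard errors were derived from the fold change and its F value. The covariate was the mean log2 CPM of the follicle markers.

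Mouse numbers are not pairs by the labels. Residuals of Slfn3KO and WT mice of the same number correlated at 0.229, 0.317, 0.518 and 0.138 in males and at -0.362, 0.143, -0.337 and -0.113 in females, so a block by number stands beside the male result.

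Named genes were Slfn3, the 5 nearest tested genes on each side, the 10 with the smallest unadjusted p, those without overlap, the largest and smallest fold change overall and of each list, and the 3 highest per kb. Some genes under this rule are not reported here. The flanking genes and lists were chosen with earlier results of these data known. The tests were checked on simulated counts.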

Additional observations from a re-analysis of the deposited data

Results flagged for a closer look

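In 12 of 112 groups of 4 mice, 1 mouse lay far from the other 3 for Slfn3 or a named flanking gene, and chance gives about 1 in 20. The groups share mice and are not independent. The 1 in 20 assumes normally spread values, which groups with counts near 0 do not have, so no excess is read from it. Slfn3 was at 0.0802 CPM in female Slfn3KO mouse 4 and at 0.0361 CPM in male Slfn3KO mouse 1, each with the others at 0. These were 2 counts and 1 count, under the 3 counts that a count of 0 allows, so neither is a difference that counting can resolve. It was at 0.646 CPM in male WT mouse 3, with the others at 0 to 0.0701.

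Male WT mouse 3, which went against its sex label and had the highest sum of follicle markers, was also far above the others in Mir142hg, at 20.9 CPM with the others at 3.72 to 6.40, and in Tspoap1, at 0.986 with the others at 0.623 to 0.634. It was far below them in Slc13a2, at 480 CPM with the others at 644 to 666. Whether the content of the sample has a part in these values was not tested.

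Female WT mouse 3 had 24.0 CPM of Rab11fip4, with the others at 42.8 to 43.6. It went against its sex label. Female WT mouse 1 had 1.61 CPM of Mks1, with the others at 4.56 to 5.05.

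Male Slfn3KO mouse 1 had 0.757 CPM of Mmp28, with the others at 0.0793 to 0.177, and 0.685 CPM of Epx, with the others at 0.317 to 0.353. Epx was at 0.534 CPM in male WT mouse 1, with the others at 0.0416 to 0.0701. Female Slfn3KO mouse 3 had 5.28 CPM of Mir142hg, with the others at 2.58 to 2.99.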

How the results depend on the processing

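The adjusted count of flanking genes in the pooled comparison was 0 and was 2 with DESeq2, and 0 when any 1 mouse was left out. The pooled count at an unadjusted p under 0.05 was 17. It was 11 with at least 10 counts in every library, 9 without WT mice 3 and 4, 10 with the follicle covariate 5 in a window of 2.5 Mb, which held fewer genes, and 22 with Slfn and Ccl genes kept. The male count of 3 was 7 with all groups in 1 fit, 8 with the mouse number as a block, 5 with DESeq2, 9 without WT mice 3 and 4 and 6 with the covariate. The female count of 18 was 11 with the block and 29 without WT mice 3 and 4. The count for the difference between the sexes, 12, was 31 without WT mice 3 and 4 and 19 with the covariate. The count without overlap, 0, was 1 without WT mice 3 and 4. The log2 fold change of Cdk5r1 reversed to 0.30 without WT mice 3 and 4. Of the other values of named genes under these alternatives, 204 kept their direction, and those of Mmp28 and Mir142hg passed it with DESeq2. Another 46 counts and medians stayed within 1.5 times their value in all libraries or within the spread between mice. The cause of these moves was not tested.

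With 1 mouse left out, the pooled count lay between 11, without male WT mouse 3, and 22, without male WT mouse 1. The male count lay between 3 and 7. It was 5 without male Slfn3KO mouse 2 or male WT mouse 2, 6 without male Slfn3KO mouse 4 and 7 without male WT mouse 4. The female count lay between 10, without female Slfn3KO mouse 2, and 35, without female WT mouse 3. The count for the difference between the sexes lay between 6, without female Slfn3KO mouse 1, and 28, without female WT mouse 3. It was 7 without female WT mouse 1 or male Slfn3KO mouse 2 and 22 without male WT mouse 4. The count without overlap was 0 throughout, the median log2 fold change lay between -0.03 and 0.02, and the median absolute log2 fold change between 0.100 and 0.145. All 432 fold changes of named genes with 1 mouse left out kept their direction. The adjusted threshold was passed by none in any of these fits and so is no measure of stability. AI662270, Gm11427, Epx and Cdk5r1 lost their unadjusted p under 0.05 without male WT mouse 3. Gm11427 also lost it without female WT mouse 4 and with the mouse number as a block, and Epx and Cdk5r1 without several other mice. Depth limited Slfn3 and Epx, which lay near 3 counts in many WT libraries.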

Other observations

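Outside the window, 17 genes of chromosome 11 had an unadjusted p under 0.05 in all 3 pooled fits, 10 lower and 7 higher in Slfn3KO mice. They were chosen after their values were seen. Xaf1, an interferon-inducible binding partner of XIAP, lies at -10.9 Mb from Slfn3 (minus for lower coordinates). It was at 8.60 to 21.2 CPM with a median of 13.4 in Slfn3KO mice and at 15.3 to 90.5 CPM with a median of 35.7 in WT mice, and 6 Slfn3KO mice were below the lowest WT mouse. Its log2 fold change was -1.52 with a standard error of 0.286, -1.47 without WT mice 3 and 4 and -1.45 with the follicle covariate. Dhx58, a regulator of RIG-I signalling 17.5 Mb away on the higher side, had -1.01, -0.47 and -0.67.

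Slc6a4, the serotonin transporter, lies at -6.19 Mb and was at 57.1 to 111 CPM in Slfn3KO and 73.4 to 209 CPM in WT mice, with log2 fold changes of -0.72, -1.17 and -0.87 in the 3 fits. On the same side, Tlcd2 at -7.73 Mb, the heat-activated channel gene Trpv3 at -9.92 Mb and Spns3 at -10.7 Mb had -0.84, -0.65 and -0.89 in all libraries. In the bin from 5 to 10 Mb on this side, 6 of 69 tested genes had an unadjusted p under 0.05 in all libraries (8.70%), against 11.9% of all tested genes, and 8 of 69 without WT mice 3 and 4 (11.6%), of which 7 were lower, against 5.80%. Grn, the progranulin gene 19.2 Mb away on the higher side, had a log2 fold change of 0.28 and was at 95.7 to 123 CPM in Slfn3KO and 75.5 to 115 CPM in WT mice. Each of these differences failed the adjusted threshold of the quasi-likelihood test of edgeR.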
